A study of Homo sapiens with 4 samples.

Results

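The genes described are *YAP1*, *WWTR1*, *TEAD1*, *TEAD4*, *CTGF*, *CYR61*, *ANKRD1*, *AMOTL2*, *LATS2* and *AJUBA*, which are the transcriptional end of the Hippo pathway together with genes it controls and genes that control it. They were picked by symbol, after the Ensembl gene IDs of the files had been matched to GENCODE 29, and all 10 were found among 58213 gene IDs listed for all 4 libraries. *CTGF* and *CYR61* are named *CCN2* and *CCN1* in later releases, and *WWTR1* encodes the protein called TAZ. RNA-seq was performed on human U87MG cells, a glioblastoma (GBM) cell line, and on R-U87MG, a derivative of that line made resistant to temozolomide (TMZ) and kept in 50 µM TMZ. R-U87MG cells received a non-targeting siRNA (si-NC) or an siRNA against the deacetylase gene *HDAC6* (si-HDAC6), and U87MG cells received si-NC or an siRNA against the long non-coding RNA *LINC00461* (si-*LINC00461*). RNA was taken 72 h after transfection. Each condition is 1 library of 1 line, so there is no estimate of the spread between cultures and no test of a condition.

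The Hippo pathway is a kinase cascade that restrains growth. The kinases LATS1 and LATS2 phosphorylate the coactivators YAP and TAZ, which are then held in the cytoplasm or degraded. Unphosphorylated YAP and TAZ enter the nucleus, where they bind DNA through the TEAD factors and switch on genes of cell growth, adhesion and matrix. Several of those genes, *LATS2* and *AMOTL2* among them, encode proteins that restrain YAP and TAZ in turn. In glial tumours the pathway is mostly studied for growth and invasion. A transcript level says nothing of where the YAP and TAZ proteins are in the cell.

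TEAD factors bind the core letters GGAATG. Both strands of the RefSeq promoters (GRCh38.p14, from 250 bases before to 50 after each gene's start) were searched for it, and an entry was matched for 7 of the 10 genes, all but *CYR61*, *TEAD1* and *TEAD4*. The core was found in 6 of those 7 genes (85.7%), all but *WWTR1*, and in 16.7% of 27305 genes with a promoter in the table. The longer form GGAATGT, which contains the core, was in *YAP1*, *CTGF* and *AMOTL2* (42.9%) and in 4.25% of all genes. The CArG box, to which the serum response factor SRF binds, was in none of the 7 and in 1.60% of all genes. The AP-1 letters TGANTCA were in *ANKRD1* alone (14.3%, against 9.37%). A match describes letters in a window and is not a bound site. Not shown are the copy in *LATS2* (chr13:21061560-21061589, minus strand) and 1 of the 2 copies in *ANKRD1*. The windows below show the core, in capitals, in the genes other than *LATS2* that hold it. They are written 5′ to 3′ on the strand of the gene, so that CATTCC in *AMOTL2* is the core on the other strand, and they lie at chr6:131951459-131951488 (minus strand) and chr6:131951524-131951553 (minus strand) for *CTGF*, chr10:90921290-90921319 (minus strand) for *ANKRD1*, chr11:102110273-102110302 (plus strand) for *YAP1*, chr3:134374499-134374528 (minus strand) for *AMOTL2* and chr14:22976884-22976913 (minus strand) for *AJUBA*.
CTGF, nearer window: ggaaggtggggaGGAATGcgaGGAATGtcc
CTGF, farther window: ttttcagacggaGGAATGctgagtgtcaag
ANKRD1: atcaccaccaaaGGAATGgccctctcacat
YAP1: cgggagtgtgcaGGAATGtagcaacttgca
AMOTL2: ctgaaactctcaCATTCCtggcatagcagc
AJUBA: gggaagttggctGGAATGaagccaaagcaa
The *CTGF* promoter held 3 copies, more than the other windows shown, and 2 of them stand in 1 stretch of 30 bases. The copies of *AMOTL2* and *AJUBA* lie in the promoter of a second start in the table.

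The libraries held between 12596069 and 20027866 fragments, and 19737 to 21078 genes had at least 1. Both siRNA targets were lower in the library that received their siRNA, *HDAC6* with 67 counts after si-HDAC6 against 296 in its control, and *LINC00461* with 73 after si-*LINC00461* against 363. *VIM*, *CD44*, *NES* and *EGFR* were well counted, whereas the glial markers *SOX2* and *GFAP* reached at most 4 and 13 counts. The glial marker *OLIG2* had 92 and 115 counts in the R-U87MG libraries and 15 and 18 in the U87MG libraries. *CDKN2A* and *MTAP*, which this line is known to have lost, reached at most 9 and 7, and the leukocyte marker *PTPRC* at most 3. Of 8 markers of other cell types, the endothelial gene *PECAM1* differed most, with 52 counts in U87MG si-NC and 433 after si-*LINC00461*. The summed level of these 8 was 430.0 CPM (counts scaled to the library total) and 761.7 CPM in those libraries and 489.3 and 535.8 CPM in the R-U87MG pair. Nearly all of each sum was the lysosomal gene *CD68*, with 424 and 734 CPM in the U87MG pair and 485 and 532 CPM in the R-U87MG pair. Of the 8, 1 was at 0 in U87MG si-*LINC00461* and 3 were at 0 in each other library. Fewer cells of a kind and less RNA per cell cannot be told apart in such samples.

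After si-*LINC00461* the coactivators and most of the target genes were lower than in U87MG si-NC, down to 0.174 of the control for *CYR61*, and *LATS2* was the only gene of the 10 that was higher. After si-HDAC6 in R-U87MG 9 of the 10 had a log2 ratio between −0.22 and 0.04, and the tenth was the hardly expressed *ANKRD1*. Between the control libraries, *CTGF*, *CYR61* and *AJUBA* were higher in R-U87MG and *WWTR1* was lower. Over the 4 libraries 9 of the 10 genes had their lowest level in U87MG si-*LINC00461*. All ratios below are log2 ratios of counts over TMM effective library sizes, with a 95% exact binomial interval in brackets that covers counting error only.

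**Figure D1:**
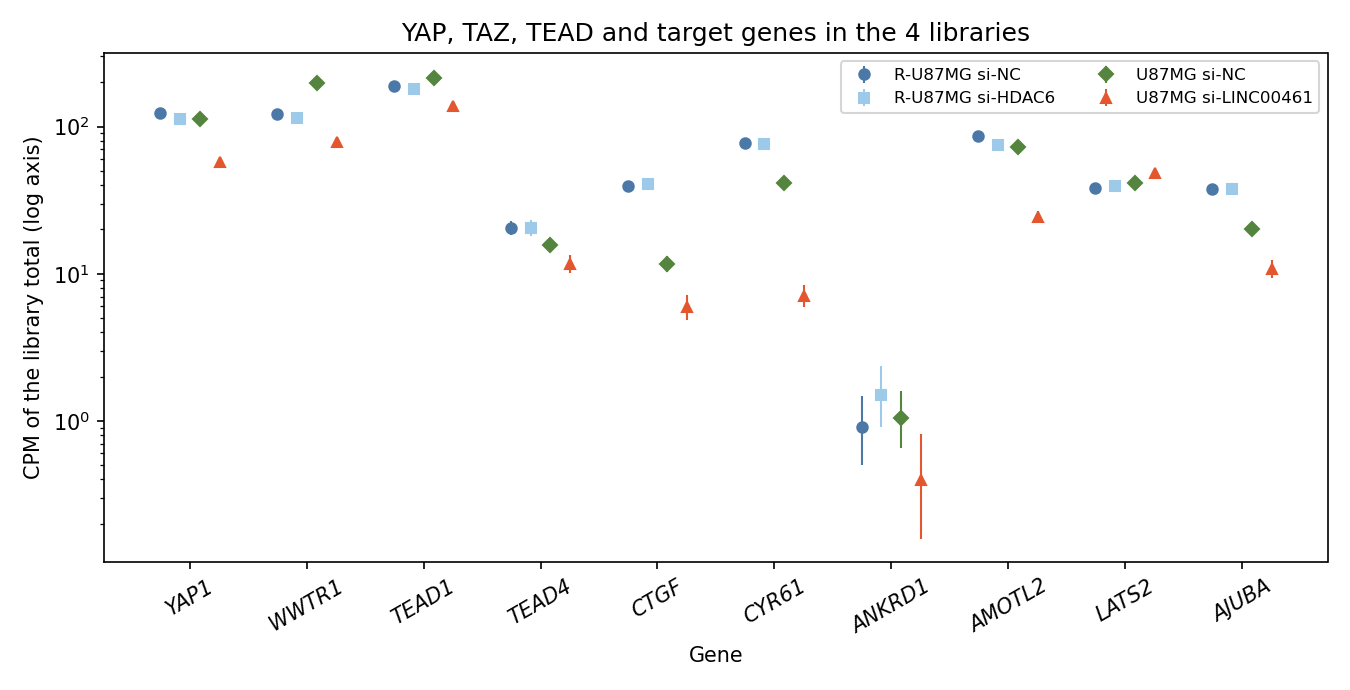
Level of each of the 10 genes in the 4 libraries, in CPM on a log axis, with the genes side by side and 95% exact Poisson intervals as error bars (counting error only). Every gene but *LATS2* is lowest after si-*LINC00461*, and the 2 R-U87MG libraries lie close together.

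*YAP1*, the first of the coactivators, is on the plus strand of chromosome 11 (102110461 to 102233423, GRCh38). Its level was 124 CPM in R-U87MG si-NC, 113 in R-U87MG si-HDAC6, 112 in U87MG si-NC and 57.9 in U87MG si-*LINC00461*. The last library stood apart from the other three, whose levels were close. The ratio after si-*LINC00461* was −0.94 [−1.05, −0.83], a fold of 0.521, which stops short of a 2-fold difference. After si-HDAC6 it was −0.14 [−0.24, −0.04].

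*WWTR1*, whose product TAZ acts beside YAP, is on the minus strand of chromosome 3 (149517235 to 149736714). Its level was 122 CPM in R-U87MG si-NC, 114 in R-U87MG si-HDAC6, 197 in U87MG si-NC and 78.6 in U87MG si-*LINC00461*. U87MG si-NC was thus the highest library and its siRNA partner the lowest, with both R-U87MG libraries between. The ratio was −1.31 [−1.40, −1.22] after si-*LINC00461* and −0.95 [−1.03, −0.88] in R-U87MG si-NC against U87MG si-NC. After si-HDAC6 it was −0.10 [−0.20, −0.00]. Per length, in TPM (scaled to the length of the joined exons of each gene), *YAP1* stood at 1.36 times *WWTR1* in R-U87MG si-NC and 1.32 times in R-U87MG si-HDAC6. That quotient was 0.763 in U87MG si-NC and 0.984 in U87MG si-*LINC00461*, so that *WWTR1* was the more abundant transcript in U87MG si-NC, *YAP1* was in both R-U87MG libraries, and the levels were close after si-*LINC00461*. The sum of both was 140.7, 129.9, 174.2 and 77.1 TPM in the same order of libraries.

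*TEAD1*, which brings YAP and TAZ to DNA, is on the plus strand of chromosome 11 (12674591 to 12944483). It was counted at 189 CPM in R-U87MG si-NC, 181 in R-U87MG si-HDAC6, 214 in U87MG si-NC and 138 in U87MG si-*LINC00461*. Its ratio after si-*LINC00461* was −0.62 [−0.69, −0.55]. *TEAD4* (plus strand of chromosome 12, 2959330 to 3040673) encodes a factor of the same family. It had 20.4 CPM in R-U87MG si-NC, 20.5 in R-U87MG si-HDAC6, 15.7 in U87MG si-NC and 11.7 in U87MG si-*LINC00461*, and its ratio was −0.41 [−0.67, −0.15] in that last comparison. The intervals of both TEAD genes lay nearer to 0 than those of the coactivators, with no overlap.

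Of the other TEAD genes, *TEAD2* had a ratio of −0.41 [−0.97, 0.13] after si-*LINC00461*, an interval that includes 0, while *TEAD3* was higher (0.32 [0.06, 0.58]). *TEAD1* made up 55.2%, 54.7%, 63.5% and 55.3% of the summed TPM of all TEAD genes in R-U87MG si-NC, R-U87MG si-HDAC6, U87MG si-NC and U87MG si-*LINC00461*. It was the leading TEAD transcript in every library. The share of *TEAD3* was 11.7% in U87MG si-NC and 19.6% after si-*LINC00461*.

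**Figure D2:**
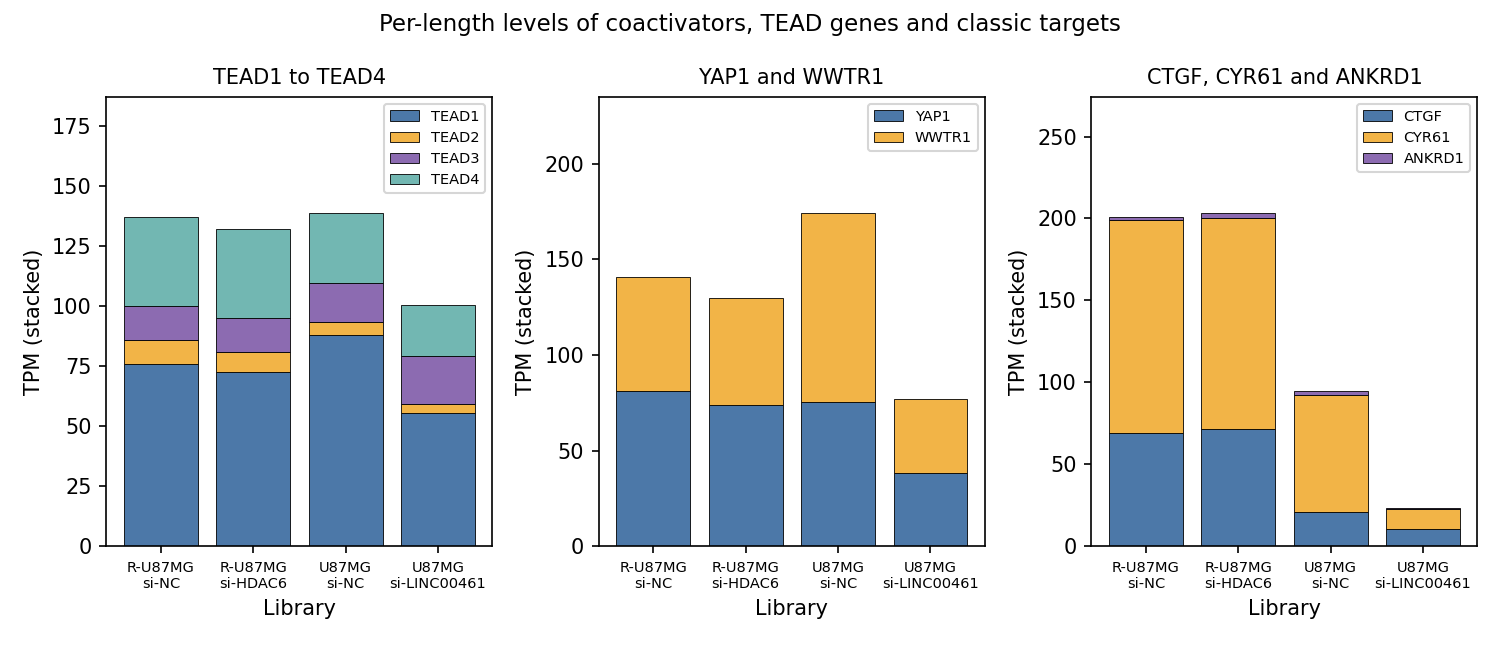
Summed level in TPM (linear axis from 0) of the coactivators, the TEAD genes, and *CTGF*, *CYR61* and *ANKRD1*, stacked by gene for each of the 4 libraries, 1 library per bar and no error bars. The coactivator sum is 174.2 TPM in U87MG si-NC and 77.1 after si-*LINC00461*, and the sum of *CTGF*, *CYR61* and *ANKRD1* is 94.6 and 23.4.

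*CTGF* encodes a secreted matrix-associated protein and is a standard readout of YAP and TAZ. It lies on the minus strand of chromosome 6 (131948176 to 131951373). Its level was 39.2 CPM in R-U87MG si-NC, 40.6 in R-U87MG si-HDAC6, 11.7 in U87MG si-NC and 5.96 in U87MG si-*LINC00461*. Both R-U87MG libraries were above both U87MG libraries. The ratio between the controls was 1.48 [1.27, 1.71], a fold of 2.79 in favour of R-U87MG, and that after si-*LINC00461* was −0.95 [−1.30, −0.62]. After si-HDAC6 it was 0.04 [−0.13, 0.21].

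*CYR61*, from the same family of secreted proteins, lies on the plus strand of chromosome 1 (85580761 to 85583962). It was counted 1287 times in R-U87MG si-NC, 967 times in R-U87MG si-HDAC6, 828 times in U87MG si-NC and 126 times in U87MG si-*LINC00461*, or 77.3, 76.8, 41.3 and 7.09 CPM. The ratio after si-*LINC00461* was −2.52 [−2.81, −2.26], a fold of 0.174, and the whole interval lay past 2-fold. The difference between the controls was smaller, 0.64 [0.51, 0.77]. *CYR61* had the widest span of the 10 genes over the 4 libraries, 3.16 on the log2 scale, which is wider than 96.9% of the 9461 genes with a mean of at least 10 CPM. *CTGF* followed with 2.48 (94.0%).

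The pair of CCN genes did not keep one proportion. Per length, *CYR61* stood at 1.88 times *CTGF* in R-U87MG si-NC, 1.80 times in R-U87MG si-HDAC6, 3.37 times in U87MG si-NC and 1.13 times in U87MG si-*LINC00461*. In the remaining CCN family, *NOV* was 1.25 higher on the log2 scale in R-U87MG si-NC than in U87MG si-NC. *WISP1* was 1.27 higher after si-*LINC00461*, opposite to *CYR61*, and its ratio between the controls was −3.94.

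*ANKRD1* encodes an ankyrin repeat protein of the nucleus, best known from stretched muscle, and is another common YAP readout. It was hardly expressed here, with 15 counts in R-U87MG si-NC, 19 in R-U87MG si-HDAC6, 21 in U87MG si-NC and 7 in U87MG si-*LINC00461*. Neighbouring levels in the order of the libraries did not differ beyond counting error. With a mean of 0.721 CPM it stayed under the filter of 1 CPM in the *LINC00461* comparison, and its interval there was wide (−1.33 [−2.88, −0.11]). After si-HDAC6 its ratio was 0.72 [−0.32, 1.81]. In that comparison it passed the filter only through the si-HDAC6 library, with 1.51 CPM against 0.901 in R-U87MG si-NC.

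*AMOTL2* encodes a junctional scaffold that binds YAP and keeps it out of the nucleus, and is itself a YAP target. It lies on the minus strand of chromosome 3 (134355874 to 134375479). It had 1441 counts in R-U87MG si-NC, 940 in R-U87MG si-HDAC6, 1448 in U87MG si-NC and 435 in U87MG si-*LINC00461*, or 86.6, 74.6, 72.3 and 24.5 CPM. The ratio was −1.55 [−1.71, −1.39] after si-*LINC00461*. After si-HDAC6 it was −0.22 [−0.34, −0.11], the lowest ratio of the 10 genes in that comparison.

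*LATS2*, the kinase gene that YAP and TAZ induce and whose product inhibits them, went the other way. It lies on the minus strand of chromosome 13 (20973032 to 21061547), and its level was 38.5 CPM in R-U87MG si-NC, 39.6 in R-U87MG si-HDAC6, 41.2 in U87MG si-NC and 48.2 in U87MG si-*LINC00461*. It was highest where the other 9 genes were lowest, although the difference was small (0.24 [0.10, 0.38]). Its paralog *LATS1* was lower after si-*LINC00461* (−0.40 [−0.56, −0.24]). Per length *LATS2* stood at 1.55 times *LATS1* in U87MG si-NC and 2.42 times after si-*LINC00461*.

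*AJUBA* encodes a LIM protein that binds LATS kinases and limits their activity. It lies on the minus strand of chromosome 14 (22971174 to 22982642), and its counts were 628 in R-U87MG si-NC, 476 in R-U87MG si-HDAC6, 401 in U87MG si-NC and 192 in U87MG si-*LINC00461*. As for *CYR61*, both R-U87MG libraries, which did not differ beyond counting error, were above U87MG si-NC, and U87MG si-*LINC00461* was lowest. The ratio was −0.87 [−1.13, −0.62] after si-*LINC00461* and 0.65 [0.47, 0.84] between the controls.

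Counted together, none of the 10 genes differed 2-fold after si-HDAC6, where 0.694% of 13120 genes compared were at least 2-fold higher and 0.747% at least 2-fold lower. The interval lay below 0 for *YAP1*, *WWTR1* and *AMOTL2*, against 16.4% of all genes, and above 0 for none, against 13.8%. For *WWTR1* this rests on the third decimal: with all 4 libraries normalized together its interval included 0. After si-*LINC00461*, *WWTR1*, *CYR61* and *AMOTL2* were at least 2-fold lower of 9 genes compared, against 8.17% of 13210 genes, and none was 2-fold higher, against 5.42%. The interval lay below 0 for 8 of the 9, against 33.3%, and above 0 for *LATS2*, against 33.1%. The median of the 9 was −0.94, and that of all genes was −0.00.

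**Figure D3:**
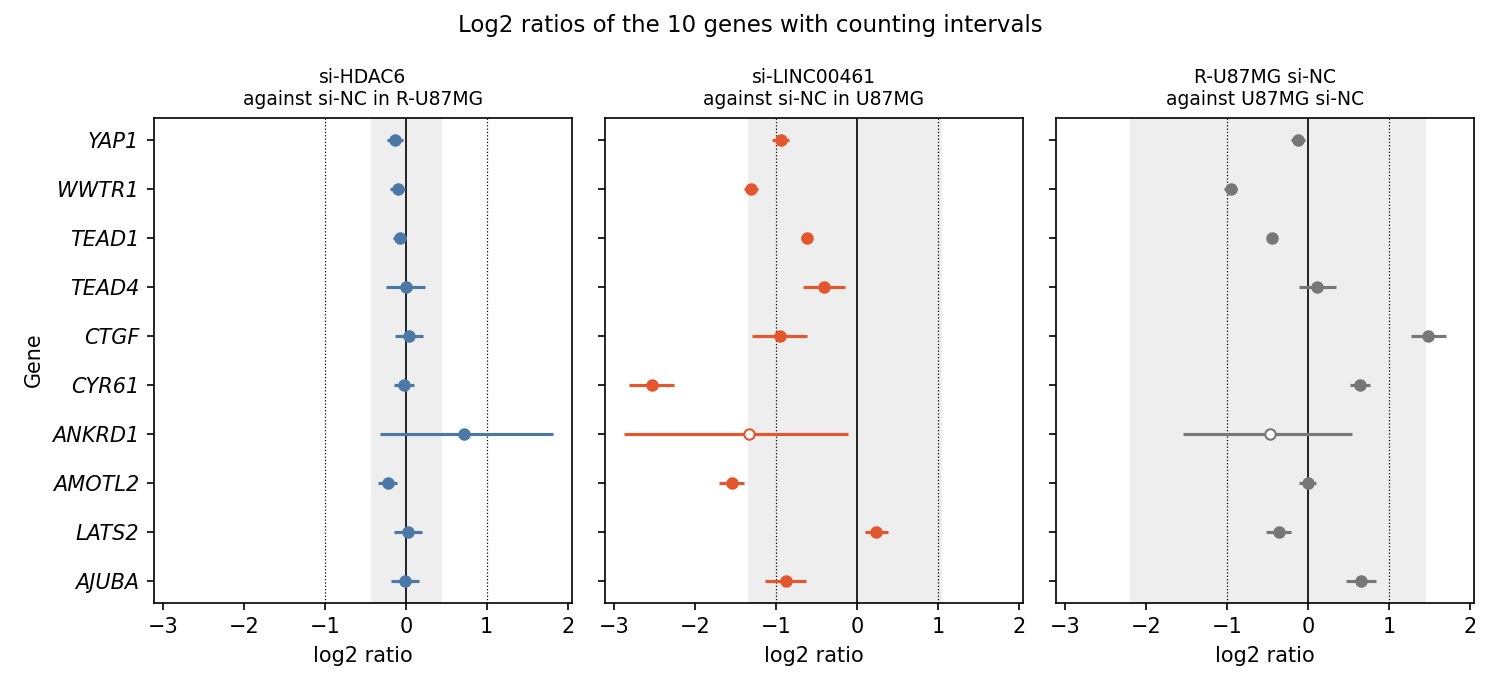
Log2 ratio of each of the 10 genes in the 3 comparisons, with 95% exact binomial intervals (counting error only) and dotted lines at 2-fold. *CYR61* (−2.52), *AMOTL2* (−1.55) and *WWTR1* (−1.31) lie past 2-fold after si-*LINC00461*, and *CTGF* (1.48) between the control libraries.

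Between the control libraries, *CTGF* was the only one of 9 genes compared that was at least 2-fold higher in R-U87MG (11.2% of 13349 genes), and none was 2-fold lower (15.0%). The interval lay above 0 for *CTGF*, *CYR61* and *AJUBA*, against 39.4% of all genes, and below 0 for *YAP1*, *WWTR1*, *TEAD1* and *LATS2*, against 38.8%. This comparison uses the control library of each of the other two. Cell line, TMZ in the culture and library cannot be told apart in it. Its values also depend on scaling, since total counts in place of TMM raise every log2 ratio by 0.26, which turns *YAP1* from −0.13 to 0.14 and *AMOTL2* from −0.00 to 0.26.

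Other genes that YAP and TAZ are known to drive were taken as a list of 22 known from other work, of which *CTGF*, *CYR61*, *ANKRD1*, *AMOTL2* and *LATS2* are also among the 10. After si-*LINC00461*, none of 20 genes that passed the filter was higher by 2-fold or more, against 5.42% of all genes, and 6 were lower, against 8.17%. These were *CYR61*, *AMOTL2*, *CRIM1*, *RBMS3*, *GADD45A* and *NUAK2*. The interval lay below 0 for 16, against 33.3% of all genes, and above 0 for 4, against 33.1%, and the median was −0.78. Without the 5 shared genes, 4 of 16 were 2-fold lower and the median was −0.67.

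*CRIM1*, which encodes a membrane protein that binds bone morphogenetic proteins, had 3826 counts in R-U87MG si-NC, 2892 in R-U87MG si-HDAC6, 3997 in U87MG si-NC and 699 in U87MG si-*LINC00461*. Only the last library stood apart, and the ratio there was −2.33. *RBMS3*, an RNA-binding protein gene, had 247 counts in U87MG si-NC and 57 after si-*LINC00461* (−1.92). Its deposited values were not whole fragments in every library. *GADD45A*, a stress response gene, was at −1.24 and the kinase gene *NUAK2* at −1.09. *ASAP1*, which encodes a regulator of the small GTPase ARF1, had the highest ratio of the list, 0.44.

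After si-HDAC6 none of 21 compared genes of this list was 2-fold higher or lower, where 0.694% and 0.747% of all genes were. The median was −0.01. The interval lay below 0 for 8 of the 21, against 16.4% of all genes, and above 0 for 2, against 13.8%. In R-U87MG si-NC against U87MG si-NC, 1 of 20 genes, *CTGF*, was 2-fold higher, where 11.2% of all genes were, and 4, *ARHGEF17*, *F3*, *IGFBP3* and *NT5E*, were 2-fold lower, where 15.0% were. The interval lay below 0 for 12 of the 20, against 38.8% of all genes, and above 0 for 3, against 39.4%. The median was −0.29, a value that depends on scaling. *IGFBP3*, which encodes a secreted carrier of insulin-like growth factors, had 988 counts in R-U87MG si-NC, 743 in R-U87MG si-HDAC6, 109623 in U87MG si-NC and 125285 in U87MG si-*LINC00461*. The tissue factor gene *F3* had 563, 435, 7874 and 6619 in the same order. Both were far lower in both R-U87MG libraries, in contrast to *CTGF* and *CYR61* of the same list.

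**Figure D4:**
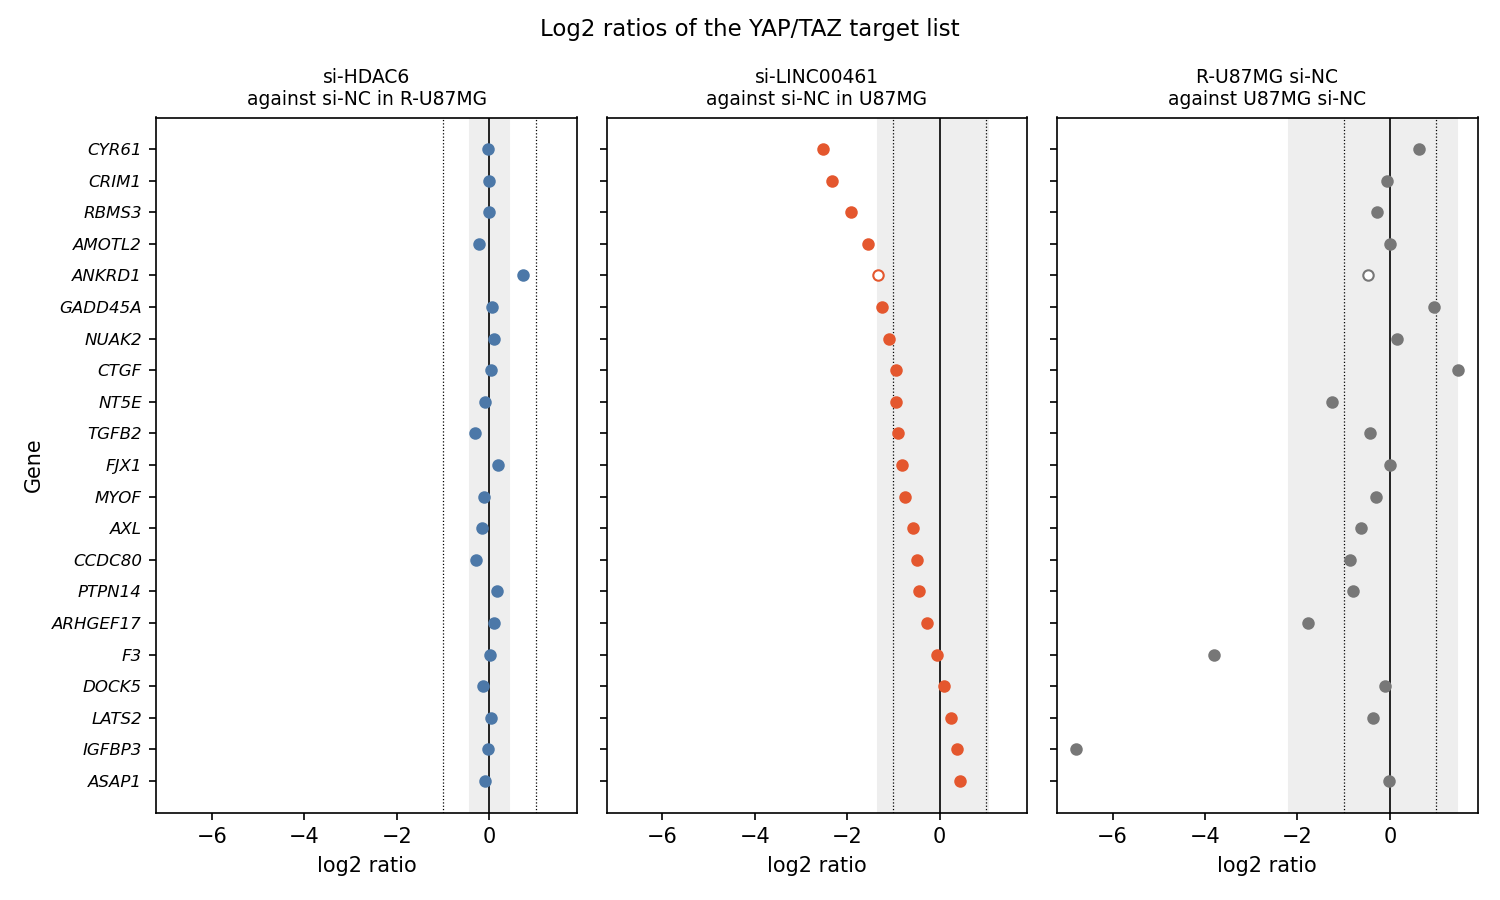
Log2 ratios of the 21 detected genes of the YAP/TAZ target list in the 3 comparisons, with the grey band from the 5th to the 95th percentile of all genes compared, dotted lines at 2-fold and open circles for genes under the filter. After si-*LINC00461* 16 of 20 genes over the filter lie left of 0 (median −0.78), and *IGFBP3* (−6.79) and *F3* (−3.80) lie far left between the controls.

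Upstream, the kinases and scaffolds of the Hippo cascade differed in direction among themselves. Of 18 kinase and adaptor genes compared after si-*LINC00461*, *TNIK* (−1.57) and *MOB1A* (−1.03), which encodes an activator of LATS, were 2-fold lower, against 8.17% of all genes. None was 2-fold higher, against 5.42%. The interval lay above 0 for 12, against 33.1% of all genes, and below 0 for 4, against 33.3%, and the median was 0.24. Of 34 genes of polarity, junction and cytoskeletal regulators compared, *AMOT* (−1.34), *FAT4* (−1.33) and *AMOTL2* were among 4 that were 2-fold lower, against 8.17% of all genes. Only 1, *SFN*, was 2-fold higher, against 5.42%. The interval lay below 0 for 17, against 33.3% of all genes, and above 0 for 12, against 33.1%, and the median was −0.11. *SFN* passed the filter only through the si-*LINC00461* library, with 16 and 29 counts, and its ratio was 1.03 [0.12, 2.02]. After si-HDAC6 no gene of either list differed 2-fold, where only 0.694% of all genes were 2-fold higher and 0.747% 2-fold lower. Among 8 coactivators and TEAD partners compared after si-*LINC00461*, *VGLL3*, a TEAD cofactor, was at −1.10, and *VGLL4*, which competes with YAP for TEAD, was at 0.83.

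Other gene groups moved with the low levels after si-*LINC00461*. Of 8 proliferation genes, 7 were 2-fold lower there, against 8.17% of all genes, with a median of −2.30. Their summed level was 2148 CPM in R-U87MG si-NC, 1787 in R-U87MG si-HDAC6, 1059 in U87MG si-NC and 206.2 in U87MG si-*LINC00461*, with the R-U87MG pair highest, as for *CYR61*. Of 16 compared targets of SRF and its cofactor MRTF, which respond to actin and share genes with YAP, *ACTB* (−1.32), *FHL1* (−1.22) and *SRF* itself (−1.15) were 2-fold lower, again against 8.17%. The median of the 16 was −0.63, with 11 intervals below 0 and 1 above, against 33.3% and 33.1% of all genes. The part of these groups in the levels of the YAP and TAZ genes was not tested.

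For each gene whose levels spanned at least 2-fold, the genes with the most similar profile were taken among 9461 genes, by the root mean square difference of centred log2 levels over the 4 libraries. *CYR61* was nearest to the mitotic genes *GTSE1*, *TACC3* and *HMMR*, with 0.0675 for the first. *AMOTL2* was nearest to *HOXB3*, *ZDHHC20* and *PAICS* (0.0136 for the first), and *WWTR1* to *NRP2*, *ATXN1* and *ENO1* (0.0370). *CTGF* was nearest to *FABP5*, *HKDC1* and *BOP1* (0.0515), *AJUBA* to *RANGAP1*, *ZNF672* and *EXOSC9* (0.0233), and the thinly counted *ANKRD1* to *NDUFS1*, *VPS53* and *CHAC1* (0.0936). No gene of the 10 appeared among the nearest of another. With 4 points, many genes share any profile.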

How the data were processed

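A service company sequenced 4 strand-specific RNA-seq libraries for the authors, with 1 for each condition. Per the labels, bcl2fastq, Trimmomatic 0.36, HISAT2 and the GRCh38.p13 build were used. The counting program, its annotation and its use of strand are not given in the sources used here. The authors deposited estimated counts by Ensembl gene ID, which had been scaled with a single factor for each library. Each value was divided by that factor and rounded, and 93.4% to 94.0% of values above 0 lay within 0.02 of a whole number. All values of the 10 genes did so. Antisense genes that overlap them had at most 16 counts in a library.

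Of 58213 gene IDs in all files, symbols and positions came from GENCODE 29. The 2 libraries of each comparison were normalized with TMM (edgeR 4.0.16, R 4.3.3). Log2 ratios were taken of the counts plus 0.5 over effective library sizes, for genes whose mean CPM reached 1, and a gene was called at 2-fold. Ratios of thinly counted genes are pulled towards 0 by the pseudocount. With 1 library per condition no test was possible, and the 95% Clopper-Pearson intervals cover counting error only. At this depth 3 counts stand for 0.150 to 0.238 CPM. Alternatives were DESeq2 size factors (DESeq2 1.42.0), total counts, other pseudocounts, filters and folds, and thinned libraries. On simulated counts with 200 changed genes, 198 were called in the right direction in the *HDAC6* comparison and 199 in each of the others. Of the unchanged genes, 38, 23 and 16 were called in the *HDAC6*, *LINC00461* and control comparisons. All planted changes were larger than 2-fold, and the simulated counts varied by Poisson counting error only. These numbers therefore check the calculation and do not measure how reliable a call from 1 library per condition is.

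The 10 genes and the gene lists were chosen with earlier results of these data known. Named are the 10 genes, their paralogs, list genes at 2-fold or with the extreme ratio, and the 3 nearest profiles of each gene spanning 2-fold. The values of 1 gene of these lists are not reported here.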

Additional observations from a re-analysis of the deposited data

How the results depend on the processing

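No paired analysis was possible because each group has 1 library. Among the 10 genes, no ratio called at 2-fold changed sign under any alternative. The ratios of other list genes were not examined singly under the alternatives. A threshold of 1.5-fold in place of 2-fold moved most counts. After si-*LINC00461*, 7 of the 9 members compared and 11 of the 20 target genes compared were lower (3 and 6 at 2-fold). Between the controls 3 of the 9 members compared were higher and 1 lower (1 and 0 at 2-fold). Of the 20 target genes compared there, 3 were higher and 7 lower (1 and 4). The share of all genes was not computed at 1.5-fold or under any other alternative, so none of the alternative counts in this paragraph can be set against it. After si-HDAC6, 1 gene, *ANKRD1*, was higher in both lists at 1.5-fold, and also at 2-fold when the libraries were thinned to one total. With total counts in place of TMM, the target list had 2 genes higher in R-U87MG and a median of −0.031 in place of −0.29. Smaller moves were as follows. After si-*LINC00461*, with no filter, 4 of the 10 and 8 of the target list were lower, and 5 of the target list were with a pseudocount of 5, a filter of 5 CPM or intervals wholly beyond 2-fold. Between the controls the target list had 3 lower with total counts and 5 with no filter. Counting error limits *ANKRD1* most, and the spread between cultures is unknown for every gene.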

Other observations

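Some upstream Hippo genes were nearly silent in R-U87MG. *WWC1*, which encodes the scaffold KIBRA that activates LATS, had 270 counts in U87MG si-NC and 139 after si-*LINC00461*, and 0 in both R-U87MG libraries. Against a floor of 3 counts per library it was at least 89.8-fold lower in R-U87MG si-NC. *AMOT*, the paralog of *AMOTL2* that also binds YAP, had 171 counts in U87MG si-NC, 59 after si-*LINC00461*, 1 in R-U87MG si-NC and 0 in R-U87MG si-HDAC6. *AMOTL2* itself was at 1448 and 1441 counts in the controls. *FAT4*, an atypical cadherin gene, was at −1.73 between the controls and *LIMD1*, a relative of *AJUBA*, at −1.33, whereas *FRMD6* was at 1.23. Between the controls 4 of 33 genes of polarity, junction and cytoskeletal regulators compared were 2-fold lower, against 15.0% of all genes. Another 2 were 2-fold higher, against 11.2%. The interval lay below 0 for 17 of the 33, against 38.8% of all genes, and above 0 for 9, against 39.4%. Line and library cannot be told apart in these values.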
